A study of Mus musculus with 2 samples.

Results

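Alveolar type 2 (AT2) cells with a low content of Lcn2 RNA were examined in the lungs of Pclaf WT and Pclaf KO mice after bleomycin injury. They were chosen cell by cell from UMI counts (unique molecular identifiers, which count RNA molecules). A cell was taken when Sftpc made up 5% or more of its UMIs, at least 2 of the 4 genes Lamp3, Slc34a2, Etv5 and Lpcat1 were found, Lcn2 was under 50 per 10000 UMIs, Ptprc and Pecam1 had 0 UMIs, and fewer than 3 of 6 cell cycle genes (Mki67, Top2a, Birc5, Cenpf, Ube2c and Prc1) were found. This gave 6604 of 45824 kept barcodes, which are called cells here. The Pclaf WT library gave 487 of 30187 (1.61%, exact binomial 95% interval 1.47 to 1.76) and the Pclaf KO library 6117 of 15637 (39.1%, 38.4 to 39.9). Since Sftpc, the 4 other markers, Lcn2, Ptprc, Pecam1 and the cycle genes chose the cells, their levels here are descriptions.

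Both libraries were made from mice of 8 to 10 weeks, 1 week after bleomycin, with the dose given as 1.35 U/kg in the series description, from which the doses in the study's text differ. Pclaf KO mice carried an established Pclaf-deficient allele in all tissues, so it was not restricted to AT2 cells, and the Pclaf WT mice carried the intact gene. Lung cells were sorted as negative for Cd31 and Cd45 and positive for Epcam, and each genotype gave 1 droplet library. Since a genotype is 1 library of cells that share their source, the genotypes are described without tests, and all intervals cover counting error only.

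AT2 cells are cuboidal cells of the alveolus that make, store and recycle surfactant, the lipid and protein film that keeps alveoli open. They also serve as progenitors of the flat alveolar type 1 (AT1) cells after injury, passing through a Krt8-rich transitional state. Lcn2 encodes lipocalin 2, a secreted protein that binds bacterial siderophores, and after lung injury some AT2 cells raise it together with acute-phase genes, a state often called activated. Pclaf encodes a small PCNA-binding protein of dividing cells.

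The genes that stood higher with Lcn2 inside the low range, described further on, were looked up in RefSeq promoter sequence (assembly GRCm38.p6, 250 bases before the annotated start, read 5′ to 3′ on the strand of the gene). All 9 such genes and Lcn2 itself were found in that table. The promoters of Lcn2 (chromosome 2, 32387740 to 32387989, minus strand), Itih4 (chromosome 14, 30886226 to 30886475, plus strand) and the second annotated start of Il33 (chromosome 19, 29945540 to 29945789, plus strand) are shown because each held a match to a motif of a factor family known from acute-phase transcription, and that of Lrg1 (chromosome 17, 56121947 to 56122196, minus strand) because Lrg1 ranked first among the 9 and had no match. Capitals mark the matches, searched on both strands:
Lcn2: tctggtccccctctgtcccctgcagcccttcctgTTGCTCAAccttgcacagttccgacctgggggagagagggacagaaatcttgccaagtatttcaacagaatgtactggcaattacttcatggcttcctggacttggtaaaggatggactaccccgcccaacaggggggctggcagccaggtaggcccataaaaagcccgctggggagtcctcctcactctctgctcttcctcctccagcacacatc
Itih4: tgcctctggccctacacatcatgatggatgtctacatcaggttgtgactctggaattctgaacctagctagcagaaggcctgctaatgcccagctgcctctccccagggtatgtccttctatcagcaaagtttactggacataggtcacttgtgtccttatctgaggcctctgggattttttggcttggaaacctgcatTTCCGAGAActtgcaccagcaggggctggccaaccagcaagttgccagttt
Il33: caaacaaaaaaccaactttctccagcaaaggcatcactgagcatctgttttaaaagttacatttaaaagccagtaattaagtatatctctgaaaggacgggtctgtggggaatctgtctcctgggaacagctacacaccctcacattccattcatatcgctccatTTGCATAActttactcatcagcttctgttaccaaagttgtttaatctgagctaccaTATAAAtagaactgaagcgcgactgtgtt
Lrg1: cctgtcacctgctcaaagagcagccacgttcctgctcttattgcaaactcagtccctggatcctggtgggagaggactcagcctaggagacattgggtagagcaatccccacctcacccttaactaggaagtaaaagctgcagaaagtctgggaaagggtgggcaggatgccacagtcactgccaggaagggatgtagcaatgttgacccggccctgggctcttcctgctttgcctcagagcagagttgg

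The C/EBP motif was spelled TTGCNNAA, the STAT motif TTCNNNGAA and the TATA box TATAAA, and the NF-kB consensus was searched as well. The C/EBP match of Lcn2 began 216 bases before the start, the STAT match of Itih4 began 51 bases before it, and the C/EBP match of Il33 began 85 bases before it with a TATA match 29 bases before it. Of the 9 genes higher with Lcn2, 3 held a C/EBP match (Cd302, Il33 and Slpi), against 9.56% of all 32851 promoters of this length. A STAT match was found in 1 of the 9 against 7.02% of all promoters, an NF-kB match in 0 against 1.41%, and a TATA match in 1 against 12.4%. Of the genes lower with Lcn2, 5 were in the table, with a C/EBP match in 1, a TATA match in 2 and the other motifs in 0. These matches are letters in a window and were not compared by a test. The Sftpc promoter is not shown.

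The libraries differed in what they held beside AT2 cells. The Pclaf WT library had 30669 barcodes and 98171818 UMIs, and the Pclaf KO library had 17172 barcodes and 111267567 UMIs, for 16000 cells loaded in each. The 30187 kept barcodes of Pclaf WT exceed the cells loaded, so some may not be cells, and the share of 1.61% depends on them. Their median depth was 2127 UMIs, against 5957 UMIs for those of Pclaf KO. Despite the sort, 10512 Pclaf WT cells met a rule for immune cells and 6699 one for endothelial cells, against 403 and 385 in Pclaf KO. Free RNA of the main cell types of a library can reach its other droplets, and its share was not measured here. Sftpc was at 423 counts per 1000000 UMIs (CPM) in the immune cells of Pclaf WT and at 3420 CPM in those of Pclaf KO, while Fcer1g, an Fc receptor chain of myeloid cells, was at 56.2 CPM in the AT2 cells of Pclaf WT and at 5.33 CPM in those of Pclaf KO. The level in other cell types of the same library is given below beside many of the genotype values.

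The AT2 cells with low Lcn2 of Pclaf WT had a median of 4902 UMIs and 1869 genes per cell, and those of Pclaf KO 7204 UMIs and 2262 genes. Their summed depth was 2473848 UMIs in Pclaf WT and 46490856 UMIs in Pclaf KO, so Pclaf WT set the counting error of every comparison. The median mitochondrial share was 5.77% in Pclaf WT and 6.17% in Pclaf KO. Cells with fewer than 5 UMIs of the nuclear RNAs Malat1, Neat1 and Kcnq1ot1 together made up 8.83% and 4.58%. The libraries shared 138 barcodes among kept cells and 0 among these AT2 cells.

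The rule for Sftpc left 794 Pclaf WT and 7176 Pclaf KO cells, and the marker requirement 733 and 6911. The exclusion of Ptprc and Pecam1 left 543 and 6693, the cycle genes 532 and 6544, and the limit on Lcn2 the final 487 and 6117. Low-Lcn2 cells were thus 91.5% (88.9 to 93.8) of such AT2 cells in Pclaf WT and 93.5% (92.9 to 94.1) in Pclaf KO. Most carried all 4 of the further markers, 407 of 487 in Pclaf WT and 5487 of 6117 in Pclaf KO. Cells lay on either side of both limits. Just inside the Lcn2 limit, at 40 to 50 per 10000 UMIs, stood 26 Pclaf WT and 183 Pclaf KO cells with Lrg1 at 991 and 1025 CPM. Just outside it, at 50 to 60, stood 12 and 135 cells with Lrg1 at 927 and 1111 CPM. Just inside the Sftpc limit, at 5 to 6% of UMIs, Slc34a2 was at 3241 CPM in 9 Pclaf WT cells and 2216 CPM in 141 Pclaf KO cells, and just outside, at 4 to 5%, at 2670 CPM in 18 cells and 2085 CPM in 140.

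Genes the rule did not use were checked against the AT2 label, and they were abundant. Of 20 such AT2 markers, 18 reached a mean of 10 CPM, the minimum for all genotype ratios here except that of Pclaf. Sftpa1, surfactant protein A, was at 16550 CPM in the Pclaf WT cells and 18780 CPM in the Pclaf KO cells, against 337 and 331 CPM in ciliated cells. Sftpb, the surfactant protein needed for spreading the film, was at 6787 and 6551 CPM against 470 and 509 CPM in ciliated cells. Cxcl15, a lung chemokine, was at 6370 and 6459 CPM against 369 and 157 CPM. The summed level of the 20 markers was 65440 CPM in Pclaf WT and 69250 CPM in Pclaf KO, and in ciliated cells 3020 and 2643 CPM. Markers of other states were mixed. Ager, an AT1 gene, was at 882 and 929 CPM against 385 and 585 CPM in cells chosen as transitional. Krt8, the keratin of the transitional state, was at 256 and 230 CPM, against 2499 and 2310 CPM in cells chosen as transitional, and Foxj1, the master factor of ciliated cells, was at 0.404 and 6.35 CPM against 493 and 491 CPM in ciliated cells.

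**Figure D1:**
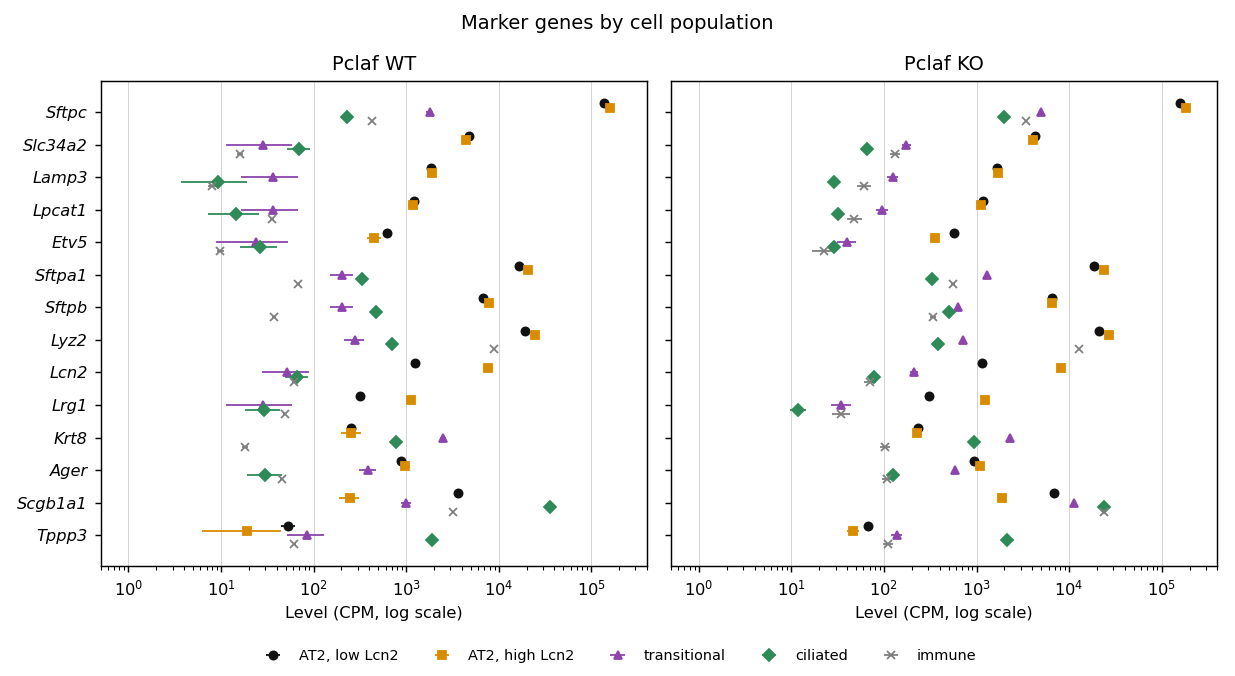
Levels of marker genes (CPM, log scale) in 5 cell populations of the Pclaf WT library (left) and the Pclaf KO library (right), with exact Poisson 95% intervals of the summed counts. The rule fixed the parting of the AT2 groups at Lcn2, and Sftpc in ciliated and immune cells is higher in the Pclaf KO library than in the Pclaf WT library.

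Between the genotypes, the surfactant genes of these cells differed by less than 2-fold, as did most genes. Of all 8047 genes with a mean of at least 10 CPM, 0.236% were at least 2-fold higher and 0.932% at least 2-fold lower in Pclaf KO. Every count of list members past 2-fold is to be read beside these shares. Sftpc, the AT2-restricted surfactant protein C, was at 137500 CPM in Pclaf WT and 159400 CPM in Pclaf KO, a log2 ratio (Pclaf KO over Pclaf WT) of 0.21. In immune cells Sftpa1 was at 68.6 and 556 CPM, also higher in Pclaf KO. The log2 ratios were 0.18 for Sftpa1, -0.05 for Sftpb and 0.10 for Sftpd, the collectin surfactant protein D. Of the 18 AT2 markers outside the rule, 0 were past 2-fold, and their median log2 ratio was -0.05, against -0.12 over all 8047 genes with a mean of at least 10 CPM. TMM factors in place of total UMIs raised every log2 ratio by 0.15 and moved the median of all genes to 0.03, so list medians are to be read against that of all genes.

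Processing and storage genes also stayed within 2-fold. Abca3, which loads lipid into lamellar bodies, was at 778 and 721 CPM, Napsa, a protease that processes surfactant proteins, at 1736 and 1887 CPM, and Lyz2, lysozyme 2, at 19160 and 21090 CPM (8967 and 12750 CPM in immune cells). Among the markers of the rule, Slc34a2, the phosphate transporter of the AT2 surface, was at 4733 and 4281 CPM, Lamp3, a lamellar body membrane protein, at 1839 and 1679 CPM, Lpcat1, which remodels surfactant phosphatidylcholine, at 1213 and 1174 CPM, and Etv5, a factor downstream of FGF signalling that maintains AT2 cells, at 629 and 567 CPM. Of 13 surfactant processing genes, 0 were past 2-fold, with a median log2 ratio of -0.05. This list holds the rule genes Slc34a2, Lamp3 and Lpcat1, so its values are in part set by the choice of cells. Rule genes also stand in the lists of surfactant proteins (Sftpc) and of fatty acid and phospholipid synthesis (Lpcat1). Etv5 stands in those of AT2 transcription factors and FGF response.

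The 17 genes of fatty acid and phospholipid synthesis had a median log2 ratio of -0.11, with 0 past 2-fold. Scd1, which makes monounsaturated fatty acids, was at 4705 CPM in Pclaf WT and 4553 CPM in Pclaf KO, and Fasn, fatty acid synthase, at 676 and 569 CPM. Fabp5, a fatty acid carrier, was higher in Pclaf KO at 1052 CPM against 796 CPM (log2 ratio 0.40, interval 0.34 to 0.47).

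Sterol synthesis genes sat lower in Pclaf KO than most other genes, though 0 of 18 were past 2-fold. Their median log2 ratio was -0.44, and 17 of 18 were below 0, where 71.3% of all genes tested were below 0. For 14 of the 18 the counting interval lay below 0, beside 1830 of all 8047 genes tested. Hmgcs1, which makes the precursor of mevalonate, was at 205 CPM in Pclaf WT and 134 CPM in Pclaf KO (log2 ratio -0.61, interval -0.74 to -0.48). Idi1, isopentenyl diphosphate isomerase, was at 175 and 118 CPM, and Insig1, which holds back sterol-regulated transcription, at 130 and 88.8 CPM. Hmgcs1 was at 87.9 and 81.8 CPM in ciliated cells and at 65.0 and 69.0 CPM in immune cells of the same libraries, where the genotypes lay closer together. In AT2 cells with high Lcn2 it was at 111 and 121 CPM. Pmvk, the phosphomevalonate kinase of the same pathway, which was not on the list, was at 146 and 74.1 CPM (log2 ratio -0.97, interval -1.13 to -0.81), against 30.2 and 23.0 CPM in ciliated cells. The summed level of the 18 sterol genes was 1471 CPM in Pclaf WT and 1082 CPM in Pclaf KO, and in ciliated cells 605 and 533 CPM. With TMM factors the list median was -0.29 and 16 of 18 were below 0.

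**Figure D2:**
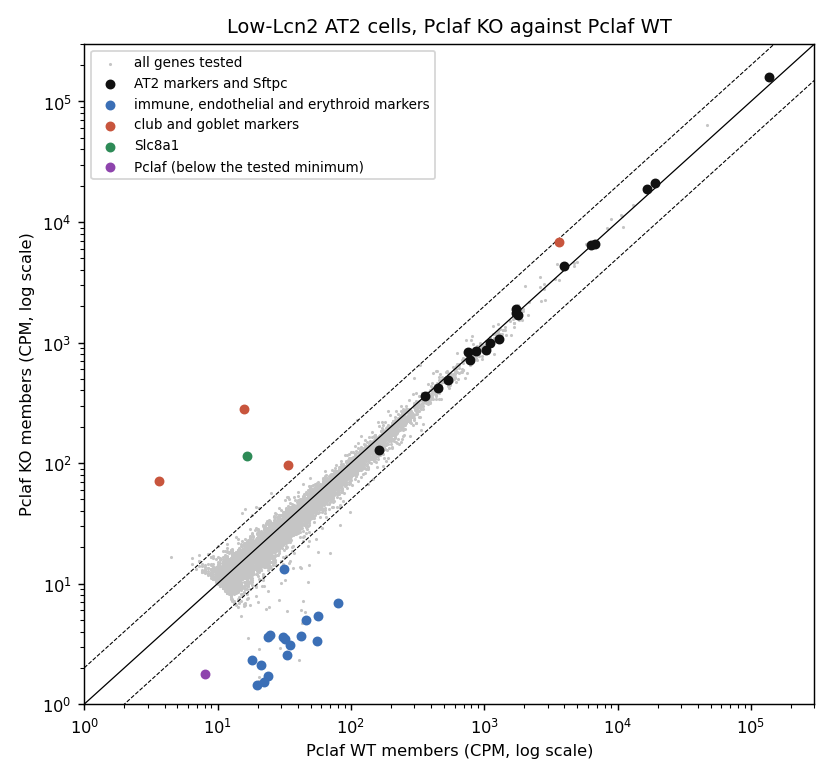
Each point is a gene in low-Lcn2 AT2 cells, at its level in Pclaf WT (x axis) and Pclaf KO (y axis), both in CPM on log scales; the solid line marks equal levels and the dashed lines 2-fold. AT2 markers lie within the 2-fold lines, and immune, endothelial and erythroid markers lie below the solid line. Slc8a1 and the club and goblet markers lie above the solid line, Scgb1a1 by less than 2-fold.

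The transcription factors of the AT2 state had a median log2 ratio of -0.16 over 10 genes, with 0 past 2-fold. Nkx2-1, the lineage factor of lung epithelium, was at 433 CPM in Pclaf WT and 338 CPM in Pclaf KO (log2 ratio -0.36, interval -0.45 to -0.27), and at 184 and 153 CPM in ciliated cells. Cebpa, which supports AT2 maturation, was at 114 and 133 CPM. Klf2, a factor that responds to shear stress and is abundant in endothelium, was at 78.0 and 43.4 CPM (log2 ratio -0.84), and in endothelial cells of the same libraries at 518 and 370 CPM. In cells with Xist RNA alone, described further on, the log2 ratio of Klf2 was -0.10 (-0.57 to 0.41), in cells with Y-linked RNA alone it was -0.96, and without cells holding 3 or more markers of other cell types, which left 130 Pclaf WT and 3361 Pclaf KO cells, it was 0.0093.

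Genes of host defence did not share 1 direction. The acute-phase genes, which mark the activated state, had a median log2 ratio of -0.01 over 11 genes. In cells with Xist RNA alone this median was 0.27, and in cells with Y-linked RNA alone it was -0.79. Lrg1, a secreted glycoprotein of the acute-phase response, was at 318 CPM in Pclaf WT and 308 CPM in Pclaf KO. Il33, an alarmin cytokine, was at 426 and 385 CPM. Lrg1 was at 341 and 411 CPM in cells with Xist RNA alone, and at 330 and 129 CPM in cells with Y-linked RNA alone. The log2 ratios of Il33 in these classes were -0.15 and -0.67. Hp, haptoglobin, was higher in Pclaf KO, at 560 CPM against 414 CPM (log2 ratio 0.44, interval 0.34 to 0.53), though not in cells with Y-linked RNA alone, as given further on. Immune cells held Hp at 70.1 and 458 CPM and ciliated cells at 997 and 999 CPM. MHC class II genes, which AT2 cells express as antigen-presenting epithelium, had a median of -0.09 over 8 genes. Their invariant chain gene Cd74 was at 2623 and 2865 CPM and H2-Aa at 778 and 742 CPM. The only gene of that list past 2-fold was Ctss, a protease abundant in myeloid cells, at 45.3 and 5.83 CPM. Interferon-stimulated and MHC class I genes were below 0 in 12 of 12, with a median log2 ratio of -0.32 and 0 past 2-fold, beside 71.3% of all genes tested below 0. With TMM factors 9 of 12 were below 0, beside 3605 of 8047 genes, and 10 of 12 lay below the median of all genes. B2m, the light chain of MHC class I, was at 475 and 343 CPM (log2 ratio -0.47), H2-K1 at 788 and 651 CPM, and Ifi27l2a, an interferon-induced gene, at 86.9 and 48.3 CPM (log2 ratio -0.85). Ifi27l2a was at 68.2 and 13.2 CPM in ciliated cells and at 414 and 434 CPM in immune cells, so it was also lower in Pclaf KO in ciliated cells.

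Over all cells AT1 and transitional genes differed little in median. The 11 AT1 genes had a median log2 ratio of -0.09, and 14 transitional genes one of -0.14. In cells with Xist RNA alone these medians were -0.26 and 0.07, and in cells with Y-linked RNA alone -0.39 and -0.62. Ager, the receptor RAGE of AT1 membranes, was at 882 CPM in Pclaf WT and 929 CPM in Pclaf KO (30.2 and 124 CPM in ciliated cells), and Aqp5, a water channel, at 325 and 361 CPM. Cav1, caveolin 1, which endothelium also makes in quantity, was the AT1 gene past 2-fold, at 41.6 and 13.7 CPM. Hopx, a homeodomain protein of AT1 cells, was at 82.5 and 45.0 CPM (log2 ratio -0.87). Its level was uneven, with 37.2% of Pclaf WT and 32.6% of Pclaf KO UMIs in the top 1% of cells, and ciliated cells held 421 and 402 CPM. Cldn4, a claudin of the transitional state, was near absent at 4.04 and 4.73 CPM, Cdkn1a, the p53 target p21, was at 143 and 127 CPM, and S100a6, a calcium-binding protein, at 381 and 336 CPM. The p53 targets had a median of -0.17 over 13 genes, the integrated stress response -0.21 over 7 genes and the chaperones of the endoplasmic reticulum -0.12 over 14 genes, each with 0 past 2-fold. Within the stress response Atf4, its central factor, was at 114 and 70.4 CPM, and Atf3 at 280 and 169 CPM. In cells with Xist RNA alone the median of the p53 targets was 0.054 and the log2 ratio of Cdkn1a 0.05, and in cells with Y-linked RNA alone they were -0.77 and -1.08, which for Cdkn1a is past 2-fold. In cells with Xist RNA alone Atf3 was at 131 and 144 CPM and the median of the integrated stress response was 0.045, and in cells with Y-linked RNA alone Atf3 was at 453 and 250 CPM and that median was -0.56.

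Immediate early and heat shock genes, which respond within minutes and also to tissue digestion, were lower in Pclaf KO in 16 of 17, with a median log2 ratio of -0.50 and 0 past 2-fold, beside 71.3% of all genes tested. With TMM factors it was 14 of 17, beside 3605 of 8047 genes. Fos was at 557 CPM in Pclaf WT and 442 CPM in Pclaf KO, Fosb at 190 and 110 CPM, the phosphatase gene Dusp1 at 174 and 94.4 CPM, and the inducible heat shock gene Hspa1b at 333 and 187 CPM (log2 ratio -0.83, interval -0.94 to -0.73). Summed over the 17 genes the levels were 5478 and 4189 CPM, and in ciliated cells 6684 and 6545 CPM. In cells with Xist RNA alone the median of this list was -0.03, and the log2 ratios of Dusp1 and Hspa1b were -0.03 and -0.27, against -1.17 and -1.09 in cells with Y-linked RNA alone.

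Signalling genes were mostly close to the median of all genes. BMP and TGF-beta response genes were below 0 in 12 of 12, with a median log2 ratio of -0.30, beside 71.3% of all genes tested. With TMM factors 9 of 12 were below 0, and 9 of 12 lay below the median of all genes. Id3, an inhibitor of bHLH factors, had a log2 ratio of -0.87, and Id2 was at 313 and 303 CPM. Clic4, an intracellular chloride channel protein that takes part in TGF-beta signalling, was at 187 and 128 CPM (log2 ratio -0.54, interval -0.68 to -0.40). Its log2 ratio was -0.23 without cells holding 3 or more markers of other cell types and -0.80 with the gene limits read as UMIs. Clic4 was at 183 and 75.1 CPM in AT2 cells with high Lcn2, at 429 and 239 CPM in transitional cells, at 182 and 137 CPM in ciliated cells and at 1205 and 954 CPM in endothelial cells, so it was lower in Pclaf KO in each of these. Over all cells the other family members differed less, with Clic1 at 137 and 136 CPM, Clic3 at 159 and 156 CPM and Clic5 at 79.6 and 61.8 CPM. In cells with Xist RNA alone the log2 ratio of Clic3 was 0.31. In cells with Y-linked RNA alone it was -0.75, where that of Clic4 was -0.39. FGF response genes had a median of -0.11 over 6 genes and Wnt response genes one of -0.12 over 8 genes. Axin2, a direct Wnt target, was at 16.2 and 12.4 CPM. NF-kB feedback genes had a median of -0.21 over 9 genes, and glutathione and NRF2 genes one of -0.09 over 13 genes, with 1 past 2-fold, Aldh1a1, a retinaldehyde dehydrogenase, at 20.6 and 42.7 CPM. Ciliated cells held Aldh1a1 at 1738 and 1560 CPM. Its log2 ratio of 1.05 was 0.72 without the cells rich in Scgb3a2, -0.55 with the gene limits read as UMIs and -0.10 without cells holding 3 or more markers of other cell types, so the call did not hold under these settings.

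Pclaf itself was nearly absent from these cells, which the cycle genes had chosen as not dividing. It had 20 UMIs in Pclaf WT, at 8.08 CPM (4.94 to 12.5), and 82 UMIs in Pclaf KO, at 1.76 CPM (1.40 to 2.19), a log2 ratio of -2.20 (-2.92 to -1.41). Immune cells held Pclaf at 58.8 CPM in Pclaf WT and 28.0 CPM in Pclaf KO. Where the 3′ tags of this assay lie relative to the altered part of the allele was not examined, so these UMIs were not used as a check of the labels. Of 20 genes of the G1 to S transition, 9 reached 10 CPM, with a median log2 ratio of -0.12 and 0 past 2-fold. Ccnd1, cyclin D1, was at 227 and 238 CPM, and Pcna, the replication clamp, at 29.9 and 21.8 CPM. In cells with Xist RNA alone the log2 ratio of Ccnd1 was 0.09 (-0.09 to 0.28). In cells with Y-linked RNA alone it was -0.66 (-0.88 to -0.44), and the median of the list was also -0.66.

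**Figure D3:**
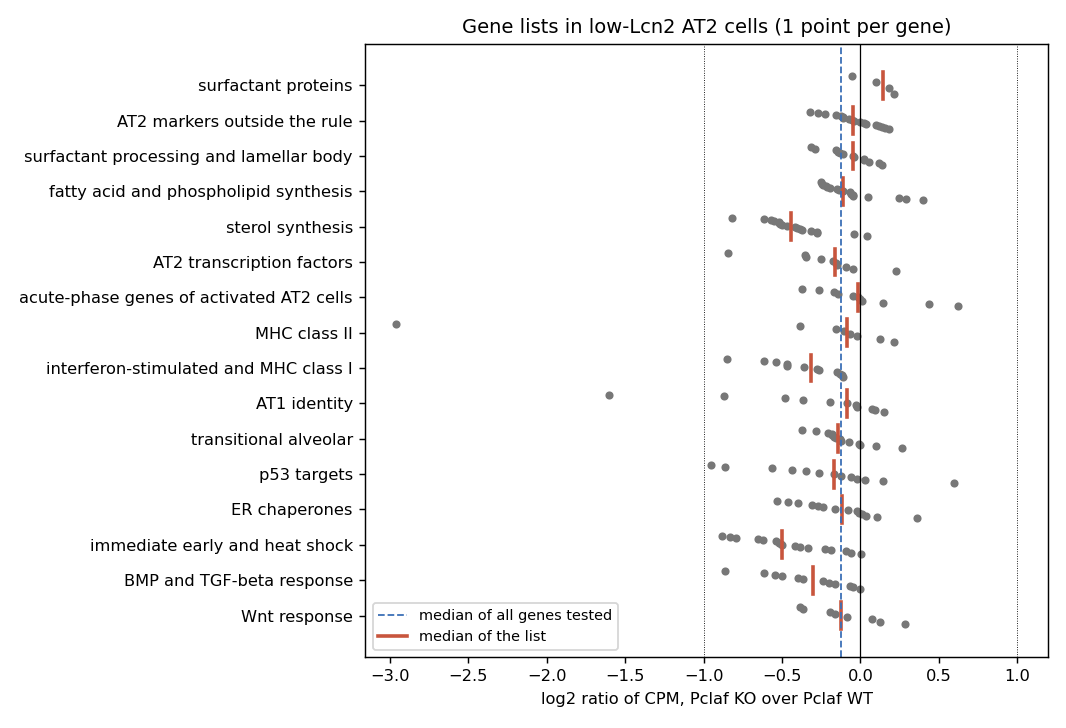
Log2 ratio of CPM, Pclaf KO over Pclaf WT, for each gene of 16 lists in low-Lcn2 AT2 cells; points are genes with a mean of at least 10 CPM, thick bars are list medians, the dashed line is the median of all 8047 genes and the dotted lines mark 2-fold. The medians of sterol synthesis and of immediate early and heat shock genes sit to the left of the dashed line, and that of surfactant proteins to its right.

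Over all genes, few were past 2-fold. Of 8047 genes, 19 were at least 2-fold higher in Pclaf KO (0.236%) and 75 at least 2-fold lower (0.932%), so 20.2% of the calls were higher. With TMM factors the counts among these genes were 29 and 63, so 31.5% were higher. All 19 higher genes and 72 of the 75 lower ones were more abundant in immune, endothelial or ciliated cells of the library where they were higher than in the AT2 cells themselves, and 15 and 68 differed in the same direction in ciliated cells. The shares of all 8047 genes that did so are not given here, so these counts are not read as a result about the called genes. The 3 lower genes that AT2 cells held at or above these cell types were Sprr1a, a cornified envelope protein, at 56.2 CPM in Pclaf WT and 18.4 CPM in Pclaf KO, the clock gene Per1 at 34.4 and 14.8 CPM, and A330032B11Rik at 14.1 and 6.39 CPM. Sprr1a rested on few cells, with 99.3% of its Pclaf WT UMIs in the top 1% of cells.

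Slc8a1, the sodium-calcium exchanger NCX1, was higher in Pclaf KO in these cells, while in ciliated, immune and endothelial cells its levels lay closer together or went the other way. It was at 16.6 CPM in Pclaf WT and 115 CPM in Pclaf KO, a log2 ratio of 2.80 (2.36 to 3.28). AT2 cells with high Lcn2 had 3 UMIs in Pclaf WT and 291 in Pclaf KO (log2 ratio 2.85, 1.29 to 5.14), and transitional cells 1 and 52 UMIs (2.81, 0.27 to 8.14), so both rest on very few Pclaf WT molecules. In turn, ciliated cells had 32.8 and 37.9 CPM, immune cells 336 and 313 CPM and endothelial cells 101 and 50.5 CPM. After each cell was thinned to 2000 UMIs, 2.23% of Pclaf WT cells (1.08 to 4.07; 448 cells) and 17.2% of Pclaf KO cells (16.2 to 18.2; 6002 cells) had a Slc8a1 UMI, and in ciliated cells 2.63% and 6.20%. Without thinning the shares were 4.31% and 39.8%. The thinning left out 39 Pclaf WT and 115 Pclaf KO cells of lower depth.

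Another high ratio was found across the library. Gm26561, a predicted transcript, was at 329 and 647 CPM, and at 286 and 570 CPM in ciliated and 191 and 357 CPM in immune cells. Among genes that AT2 cells held at or above the other cell types and at 50 CPM or more, the lowest ratios were those of Pmvk and of Col12a1, a fibril-associated collagen at 65.1 and 36.0 CPM (log2 ratio -0.85), followed by Hspa1b, Fosb, Rnaset2a, Gm26532, Atf3, Kcnj2, Rgcc and Klf6. In cells with Xist RNA alone, described further on, the log2 ratios of Fosb, Gm26532 and Atf3 were 0.80, 0.34 and 0.14, that of Klf6 was -0.15 (-0.41 to 0.12) and that of Hspa1b -0.27, whereas Kcnj2 and Rgcc were closer to 0 in cells with Y-linked RNA alone, at -0.34 and -0.29. Without cells holding 3 or more markers of other cell types the log2 ratio of Col12a1 was 0.013, that of Klf6 -0.06 and that of Atf3 -0.08, and those of Fosb and Gm26532 were -0.32 and -0.34. The highest after Gm26561 were Dnase2a at 44.1 and 66.6 CPM and Cmss1 at 2019 and 2962 CPM, followed by mt-Nd3, Inpp4b, Bex2, mt-Nd1, Gm42418, Acoxl and Fabp5. Inpp4b had a log2 ratio of 0.02 (-0.18 to 0.22) in cells with Xist RNA alone and 0.97 in cells with Y-linked RNA alone, and Bex2 was at 0.19 without the cells holding other markers. Col12a1 was also lower in transitional cells, at 80.2 and 46.5 CPM, and was at 5.25 and 5.62 CPM in ciliated cells.

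RNA of other cell types moved with genotype, as the makeup of the libraries did. Of 14 immune markers, 7 reached 10 CPM and all 7 were at least 2-fold lower in Pclaf KO, with a median log2 ratio of -3.40. Their summed level was 289 CPM in the AT2 cells of Pclaf WT and 30.2 CPM in those of Pclaf KO, and 417 and 36.9 CPM in ciliated cells. Fcer1g was the most abundant of them in both libraries, and Nkg7 was at 0 UMIs in both libraries, which allows up to 1.21 CPM in Pclaf WT and 0.0645 CPM in Pclaf KO by a floor of 3 counts. Of 10 endothelial markers, 7 of 7 above the minimum were at least 2-fold lower (summed level 240 and 34.0 CPM; ciliated cells 202 and 25.1 CPM), the most abundant being Calcrl in Pclaf WT, at 55.8 and 3.31 CPM, and Egfl7 in Pclaf KO, at 31.5 and 13.2 CPM. Erythroid markers were lower in 3 of 3, with Hbb-bs at 79.6 and 6.95 CPM. Without cells holding 3 or more markers of other cell types the log2 ratio of Hba-a1 was 0.27. Those of Hba-a2 and Hbb-bs were then -1.18 and -1.39. In cells with Y-linked RNA alone that of Hba-a1 was -1.09 (-2.65 to 0.92). Pclaf WT cells held Hbb-bs at 175 CPM with Xist RNA alone and at 16.9 CPM with Y-linked RNA alone. Mesenchymal markers had 0 of 8 past 2-fold, with a median log2 ratio of 0.089 that was 1.23 in cells with Xist RNA alone and -1.18 with the gene limits read as UMIs. Mgp, matrix Gla protein, was at 542 CPM in both, although 37.5% of Pclaf WT and 21.8% of Pclaf KO cells held a Mgp UMI after thinning to 2000 UMIs and the top 1% of cells held 32.6% and 58.8% of its UMIs. Its log2 ratio was 0.56 in cells with Xist RNA alone and -0.33 in cells with Y-linked RNA alone, -0.69 without cells holding 3 or more markers of other cell types and -1.18 with the gene limits read as UMIs. Of 8 ciliated markers, 1 of 3 above the minimum was past 2-fold, Tmem212 at 4.45 and 16.7 CPM, with a log2 ratio of 0.21 without cells holding other markers. The part of such RNA in the other genotype ratios was not tested. Airway markers went the other way. Of 10 club and goblet markers, 3 of 4 above the minimum were at least 2-fold higher in Pclaf KO, among them Cyp2f2, a cytochrome of club cells, at 33.6 and 96.8 CPM. Without the cells rich in Scgb3a2 described further on, the log2 ratio of Cyp2f2 was 0.77, short of 2-fold, Scgb3a2 was still past 2-fold, Scgb3a1 fell below the minimum, and the list median was 0.77 over the 3 genes left, in place of 2.84. Cyp2f2 was also short of 2-fold without cells holding other markers, at 0.13, and Scgb3a2 was so with the gene limits read as UMIs, at 0.94. The fourth, Scgb1a1, was at 3662 and 6886 CPM in AT2 cells, 3174 and 23770 CPM in immune cells and 35980 and 23630 CPM in ciliated cells. The top 1% of cells held 90.6% of its Pclaf WT and 78.3% of its Pclaf KO UMIs, and its median per 10000 UMIs was 1.46 and 10.9. Its log2 ratio of 0.91 turned to -0.99 without the cells rich in Scgb3a2. In Pclaf WT, 5 of the 10 markers had 0 UMIs.

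Within the low range, Lcn2 content varied continuously, and a group of genes varied with it in both libraries. Cells were put in 4 ranges of Lcn2 per 10000 UMIs (under 5, 5 to 10, 10 to 20 and 20 to 50), with 183, 97, 102 and 105 cells in Pclaf WT and 2428, 1373, 1292 and 1024 in Pclaf KO. Lcn2 had 0 UMIs in 15.4% of Pclaf WT and 11.6% of Pclaf KO cells. From the lowest to the highest of these ranges, 9 of 2587 genes (0.348%) were at least 2-fold higher and 7 (0.271%) at least 2-fold lower in both libraries. These ranges were set by Lcn2, a gene of the rule, so the values are a description. The median depth also differed between the ranges, from 4735 to 5288 UMIs in Pclaf WT and from 6436 to 8398 UMIs in Pclaf KO. The nuclear RNA Malat1 was lower in the highest range, at 15020 and 11470 CPM in Pclaf WT and at 16510 and 10670 CPM in Pclaf KO, and its part in these values was not tested. In Pclaf KO, cells with Xist RNA alone and with Y-linked RNA alone, described further on, held Lcn2 at 1414 and 634 CPM. They held Lrg1 at 411 and 129 CPM, Auts2 at 98.1 and 196 CPM and S100a6 at 344 and 270 CPM. In Pclaf WT Lcn2 was at 1225 and 1381 CPM in these classes. The ranges may thus mix animals, and the part of this was not tested.

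Lrg1 was at 57.6, 198, 283 and 851 CPM across the 4 ranges in Pclaf WT and at 76.6, 196, 419 and 753 CPM in Pclaf KO, and reached 1119 and 1223 CPM above the limit. Il33 was at 215, 426, 555 and 622 CPM in Pclaf WT and at 244, 344, 468 and 603 CPM in Pclaf KO. Chil1, a chitinase-like protein of AT2 cells, was at 1020 CPM in the lowest and 2790 CPM in the highest range of Pclaf WT, and at 1144 and 2853 CPM in Pclaf KO. These 3 genes thus stood higher with each step in both genotypes. Itih4, an acute-phase inter-alpha-trypsin inhibitor chain, was at 59.9 and 213 CPM in the outer ranges of Pclaf WT and 64.1 and 232 CPM in those of Pclaf KO. Hdc, which makes histamine, was at 57.6 and 193 CPM in Pclaf WT and 52.7 and 175 CPM in Pclaf KO. Ptgs1, cyclooxygenase 1, was at 103 and 352 CPM in Pclaf WT and 119 and 334 CPM in Pclaf KO. Lrp2 (megalin, an endocytic receptor that takes up lipocalin 2), Slpi (a secreted protease inhibitor) and Cd302 (a C-type lectin receptor) completed the 9.

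The 7 genes that were lower were S100a6, Ndnf, Igfbp6, Auts2, Aox3, 9530026P05Rik and Gstm1. S100a6 was at 654, 351, 229 and 134 CPM across the ranges in Pclaf WT and at 600, 231, 161 and 169 CPM in Pclaf KO. Ndnf, a secreted neuron-derived factor, was at 242 CPM in the lowest and 76.7 CPM in the highest range of Pclaf WT, and at 185 and 73.4 CPM in Pclaf KO. Aox3, an aldehyde oxidase, was at 342 and 159 CPM in Pclaf WT and at 379 and 171 CPM in Pclaf KO. Lipid and chemokine genes also differed between the ranges. Scd1 was at 3215 and 6148 CPM in the outer ranges of Pclaf WT and 3203 and 6465 CPM in those of Pclaf KO, Cxcl15 at 4715 and 8300 CPM and at 4932 and 8409 CPM, and Etv5 was lower in the highest range, at 704 and 511 CPM and at 597 and 478 CPM. Slc34a2 was at 4155 and 5079 CPM in Pclaf WT and 3968 and 4502 CPM in Pclaf KO.

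**Figure D4:**
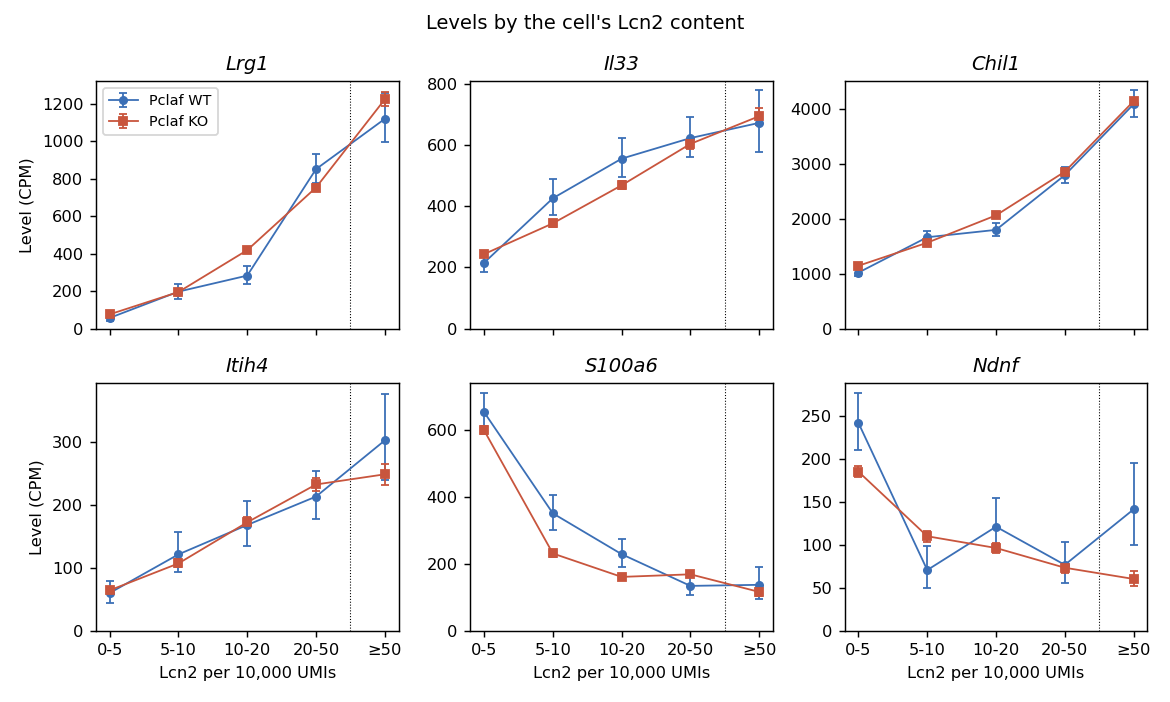
Levels of 6 genes (CPM, linear axes from 0, exact Poisson 95% intervals) in AT2 cells grouped by Lcn2 per 10000 UMIs, for Pclaf WT and Pclaf KO; the dotted line marks the limit of the rule. Lrg1, Il33, Chil1 and Itih4 are higher, and S100a6 and Ndnf lower, in the range next to the limit than in the lowest range of both libraries; Lrg1 reaches 1119 and 1223 CPM above the limit.

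Set against the 45 Pclaf WT and 427 Pclaf KO cells above the limit, the low-Lcn2 cells had 5 of 2429 genes at least 2-fold higher (0.206%) and 7 at least 2-fold lower (0.288%) in both libraries. The limit on Lcn2 made this contrast, so nothing is read from it. The higher genes were Scgb1a1, most of whose UMIs lay in few cells as given above, Auts2, S100a6, 9530026P05Rik and Adamtsl1, and the lower ones Lrg1, Slpi, Dmkn, Slc26a4, Chil1, Malt1 and Mt2. Lrg1 was at 318 against 1119 CPM in Pclaf WT and 308 against 1223 CPM in Pclaf KO. Slc34a2 was at 4733 against 4430 CPM and 4281 against 4086 CPM, and Lamp3 at 1839 against 1913 CPM and 1679 against 1701 CPM.

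Among themselves the cells varied most in a few genes. After thinning to 2000 UMIs, 4578 genes were ranked by the variance over the mean (Fano factor) in the library where it was lower, and Scgb1a1 came first in both, at 343 in Pclaf WT and 354 in Pclaf KO. Lyz1, a lysozyme made by part of the AT2 cells, followed at 28.4 and 29.2, then Sftpc at 28.3 and 39.5 and Retnla, a secreted resistin-like protein, at 18.9 and 32.0. A Lyz1 UMI was found in 13.8% of thinned Pclaf WT cells and 16.6% of thinned Pclaf KO cells, against 1.75% and 3.67% of ciliated cells, where its UMIs are taken as background. Without thinning the shares were 17.2% and 25.9%. The top 1% of cells held 32.9% of Lyz1 UMIs in Pclaf WT and 29.5% in Pclaf KO, and the highest single cells held 253 and 466. The Lyz1 level was 1096 and 1115 CPM, and the uneven use was present in both genotypes. Sftpc per 10000 UMIs ran from 697 at the 5th percentile over a median of 1374 to 2162 at the 95th in Pclaf WT, and from 698 over 1600 to 2523 in Pclaf KO. Since the rule set its lower end, only the upper range is free.

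A small set of cells carried both AT2 and airway secretory RNA. Cells with 5 or more UMIs of Scgb3a2, a secretoglobin of bronchiolar cells, were 1 of 487 in Pclaf WT (0.205%, 0.00520 to 1.14) and 77 of 6117 in Pclaf KO (1.26%, 0.995 to 1.57). The limit of 5 was chosen after the data were seen, and the intervals overlap. In the 77 cells Scgb1a1 was at 214700 CPM against 1838 CPM in the other Pclaf KO cells, Retnla at 4978 against 137 CPM and Tff2, a mucosal trefoil peptide, at 230 against 0.441 CPM. They kept Sftpc at 93690 CPM by the rule, Slc34a2 at 2485 against 4324 CPM and Sftpb at 4253 against 6606 CPM, while Lyz1 was at 346 against 1134 CPM. Their median depth was 13238 UMIs and 3185 genes against 7166 UMIs and 2257 genes, and 6 of the 77 were called doublets, where 193 of 6117 were called in all. Whether droplets held an AT2 and a club cell was not tested further. These 77 cells held 91.8% of the Scgb3a2 UMIs and 73.9% of the Scgb1a1 UMIs of the Pclaf KO cells. Without such cells the counts of genes past 2-fold were 15 and 73.

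Both libraries held cells of more than 1 animal. Of the 487 Pclaf WT cells, 159 had Xist and no Y-linked UMI and 172 the reverse, and of the 6117 Pclaf KO cells 3344 and 1465. The study's methods give the mice as male, which the cells with Xist RNA in both libraries go against, and the number of animals pooled is not given in the sources used here. The classes let each genotype ratio be taken in each class apart, although each class of a library may still be 1 animal, and this split was chosen after the data were seen. In all, 12 genes were at least 2-fold higher and 57 at least 2-fold lower in both classes, among them 8 of the 19 and 51 of the 75 above. The number of genes tested in both classes is not given here. Cells of both classes are among those that gave the 19 and 75, so this overlap is in part built in.

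Some differences were close in both classes. Slc8a1 was at 12.3 CPM in Pclaf WT and 112 CPM in Pclaf KO in cells with Xist, and at 14.8 and 129 CPM in cells with Y-linked RNA. Hmgcs1 had log2 ratios of -0.55 and -0.55, Pmvk -0.94 and -1.17, Gm26561 0.95 and 1.05, and Clic4 -0.41 and -0.39. Others did not. The sterol list had medians of -0.56 and -0.33. Hp was at 329 and 624 CPM in cells with Xist (log2 ratio 0.92) and at 457 and 428 CPM in cells with Y-linked RNA (log2 ratio -0.10, interval -0.24 to 0.05). Lcn2 itself was at 1225 and 1414 CPM in cells with Xist and at 1381 and 634 CPM in cells with Y-linked RNA, and Lrg1 at 341 and 411 CPM and at 330 and 129 CPM. The acute-phase list had medians of 0.27 and -0.79, the immediate early and heat shock list -0.03 and -0.62, the interferon and MHC class I list -0.21 and -0.74 and the transitional list 0.07 and -0.62. The high-Lcn2 share of AT2 cells was 1.85% (0.384 to 5.32) in Pclaf WT and 7.39% (6.56 to 8.30) in Pclaf KO in cells with Xist, and 10.4% (6.48 to 15.6) and 1.08% (0.619 to 1.75) in cells with Y-linked RNA. The Pclaf WT share in cells with Xist rests on 3 of 162 AT2 cells. In AT2 cells with neither kind of UMI the shares were 12.65% (8.00 to 18.7) and 11.64% (9.89 to 13.6). The share of low-Lcn2 cells therefore leaned opposite ways in the 2 classes and lay close together in cells with neither. Animal, sex and genotype cannot be told apart here.

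**Figure D5:**
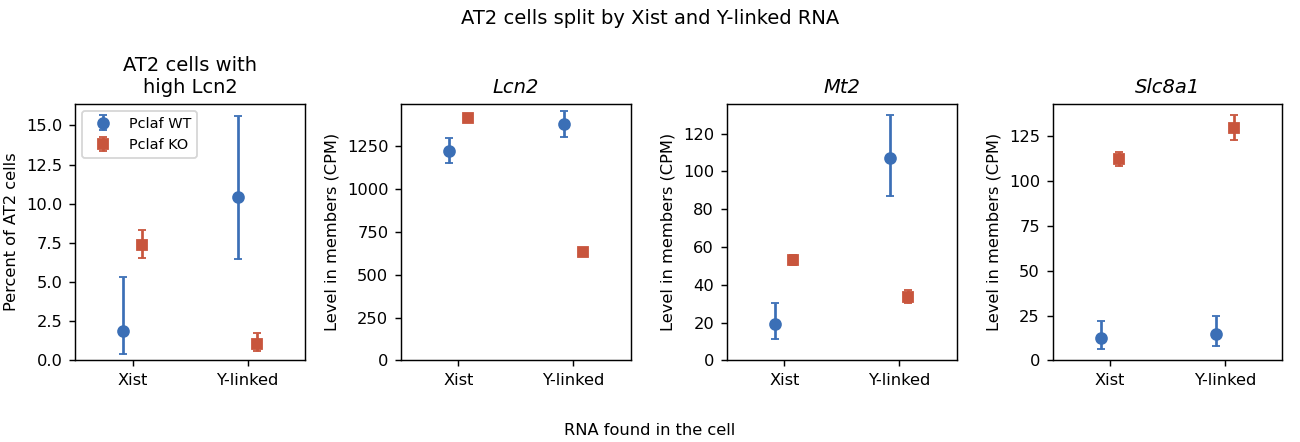
AT2 cells of each library split by whether Xist or Y-linked UMIs were found, with 95% counting intervals: the percent with high Lcn2 and the levels (CPM) of Lcn2, Mt2 and Slc8a1 in low-Lcn2 cells. Slc8a1 is higher in Pclaf KO in both classes, whereas Lcn2, Mt2 and the high-Lcn2 share differ in opposite directions.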

How the data were processed

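The authors deposited UMI counts per gene and barcode from Cell Ranger (5.0.0 in the file headers, 3.1.0 in the submitters' processing notes). Barcodes with 201 to 4999 genes and under 20% mitochondrial UMIs were kept. UMIs of the chosen cells were summed per library and expressed per 1000000 (CPM) with NumPy 2.4.6, SciPy 1.17.1 and pandas 2.3.3. Ratios were taken for genes with a mean of at least 10 CPM and for Pclaf, with exact conditional 95% intervals, and Poisson or Clopper-Pearson intervals for levels and shares. These steps recovered known folds in simulated Poisson counts. The simulation held neither the spread between cells nor RNA of other cell types, so it checks the arithmetic and not the genotype ratios. The genes named were the 10 highest and 10 lowest ratios at 50 CPM or more, the same among genes not above their level in other cell types, and the top 3 of each list. Some genes under this rule are not reported here. Scrublet (scanpy 1.11.5) called 1.85% and 3.16% of the cells doublets, which were kept. Over all kept cells it called 7.76% in Pclaf WT and 2.70% in Pclaf KO, under the 24.1% and 12.5% expected at these cell numbers, so doublets may remain among the cells. TMM factors came from edgeR 4.0.16. A population chosen by AT1 genes was led by Scgb1a1 and was not used. The cells and gene lists were chosen with earlier results of these data known.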

Additional observations from a re-analysis of the deposited data

Results flagged for a closer look

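The 2 cell classes within each library, those with Xist RNA alone and those with Y-linked RNA alone, gave genotype differences of opposite sign for the high-Lcn2 share of AT2 cells, which was 5.54 percentage points higher in Pclaf KO in the Xist class and -9.34 points in the Y-linked class. The same held for 10 of 143 named genes with a log2 ratio of at least 0.3 and a counting interval away from 0 in each direction. The log2 ratios, Pclaf KO over Pclaf WT, in the Xist and the Y-linked class were 1.47 and -1.67 for Mt2, a metallothionein, 0.80 and -1.05 for Fosb and 0.46 and -0.55 for Jun, both AP-1 factors, and 0.66 and -0.61 for Nfkbia, the NF-kB inhibitor. They were 0.58 and -0.79 for Itih4, 0.53 and -1.03 for Inmt, a methyltransferase, 0.31 and -0.75 for Clic3 and 0.56 and -0.33 for Mgp. Auts2 had -0.72 and 0.57, and Nkd1, a Wnt inhibitor, -0.35 and 0.55. The high-Lcn2 share of Pclaf WT in the Xist class rested on 3 of 162 AT2 cells. With 1 library per genotype these differences were not tested.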

How the results depend on the processing

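No paired analysis was possible because each genotype had 1 library, and for the same reason no replicate could be left out. Depth in Pclaf WT, with 487 cells, set the counting error. Of the list medians under the alternatives 65 moved and 640 did not, and of the counts of genes past 2-fold 24 moved by over 1.5 times and 26 did not. The Xist and Y-linked classes and the removal of Scgb3a2-rich cells were chosen after seeing the data. Of 137 named genes, 59 changed sign under at least 1 alternative. Those past 2-fold that did so were Aldh1a1 (-0.55 with the gene limits read as UMIs, -0.10 without cells holding other-cell markers), Hba-a1 (0.27 without the latter) and Kdm5d (0.20 with those limits). The log2 ratio of Slc8a1 ran from 2.61 to 3.68, that of Clic4 from -0.80 to -0.23 and that of Scgb1a1 from -0.99 to 1.97. The causes of the following values were not tested. With the gene limits read as UMIs, the share of kept cells was 1.05% in Pclaf WT and 20.5% in Pclaf KO, the low-Lcn2 share of AT2 cells was 91.7% in Pclaf KO, 57 genes were higher and 250 lower, and list medians were -0.13 (AT2 markers outside the rule), 0.019 (surfactant proteins), -0.13 (surfactant processing and lamellar body), -0.20 (acute-phase genes of activated AT2 cells), -0.80 (immediate early and heat shock), -2.68 (immune markers), -1.18 (mesenchymal markers), 1.11 (club and goblet markers), -1.62 (erythroid markers) and 0.20 (X and Y linked). With at least 500 genes, the share of kept cells was 1.98% in Pclaf WT and 42.4% in Pclaf KO. With Sftpc at 10% or more of UMIs, the share of kept cells was 1.24% in Pclaf WT and 32.8% in Pclaf KO, the low-Lcn2 share of AT2 cells was 92.7% in Pclaf KO, 12 genes were higher, and the list median was 0.69 (club and goblet markers). With Lcn2 under 20 per 10000 UMIs, the share of kept cells was 1.26% in Pclaf WT and 32.6% in Pclaf KO, the low-Lcn2 share of AT2 cells was 71.8% in Pclaf WT and 77.8% in Pclaf KO, 32 genes were higher, and the list median was -0.27 (AT1 identity). Without cells poor in nuclear RNA, the share of kept cells was 2.26% in Pclaf WT and 44.9% in Pclaf KO, and the low-Lcn2 share of AT2 cells was 95.2% in Pclaf KO. In cells of 3000 to 12000 UMIs, the share of kept cells was 3.89% in Pclaf WT and 48.4% in Pclaf KO, the low-Lcn2 share of AT2 cells was 94.6% in Pclaf KO, 12 genes were higher, and list medians were -0.21 (AT1 identity), -0.36 (transitional alveolar) and 0.62 (club and goblet markers). Without cells holding 3 or more other-cell markers, the share of kept cells was 12.5% in Pclaf WT and 56.5% in Pclaf KO, 92 genes were higher and 168 lower, and list medians were 0.055 (surfactant proteins), 0.0058 (MHC class II), 0.20 (transitional alveolar), 0.012 (integrated stress response), -0.20 (immediate early and heat shock) and 1.17 (club and goblet markers). With under 10% mt- UMIs, the share of kept cells was 37.6% in Pclaf KO, the low-Lcn2 share of AT2 cells was 92.6% in Pclaf KO, and the list median was -0.21 (AT1 identity). With Sftpc at 2% or more of UMIs, the share of kept cells was 41.4% in Pclaf KO. With Lcn2 under 100 per 10000 UMIs, the share of kept cells was 41.2% in Pclaf KO, and the low-Lcn2 share of AT2 cells was 98.7% in Pclaf WT and 98.5% in Pclaf KO. With at least 1 of Lamp3 Slc34a2 Etv5 Lpcat1, the share of kept cells was 39.96% in Pclaf KO. With at least 3 of Lamp3 Slc34a2 Etv5 Lpcat1, the share of kept cells was 38.1% in Pclaf KO, and the low-Lcn2 share of AT2 cells was 94.2% in Pclaf KO. With no upper limit on genes, 35 genes were higher, and the list median was 1.63 (ciliated markers). In the Xist class, 67 genes were higher and 128 lower, and list medians were 0.27 (acute-phase genes of activated AT2 cells), 0.049 (MHC class II), -0.26 (AT1 identity), 0.070 (transitional alveolar), 0.054 (p53 targets), 0.045 (integrated stress response), -0.031 (immediate early and heat shock), -3.05 (immune markers), 1.23 (mesenchymal markers), 4.89 (club and goblet markers) and -4.74 (erythroid markers). In the Y-linked class, 48 genes were higher and 2.0e+02 lower, and list medians were 0.056 (surfactant proteins), -0.79 (acute-phase genes of activated AT2 cells), -0.74 (interferon-stimulated and MHC class I), -0.39 (AT1 identity), -0.62 (transitional alveolar), -0.77 (p53 targets), -0.56 (integrated stress response), -0.62 (immediate early and heat shock), -0.51 (NF-kB feedback), -0.39 (glutathione and NRF2), -0.66 (G1/S genes) and -0.32 (X and Y linked). After thinning to 2000 UMIs, 36 genes were higher and 139 lower, and list medians were -0.12 (surfactant processing and lamellar body) and -3.06 (erythroid markers). With TMM factors and the minimum level applied anew, 32 genes were higher, and list medians were 0.027 (all genes tested), 0.10 (AT2 markers outside the rule), 0.29 (surfactant proteins), 0.10 (surfactant processing and lamellar body), 0.035 (fatty acid and phospholipid synthesis), 0.062 (MHC class II), 0.060 (AT1 identity), 0.028 (ER chaperones) and -0.35 (immediate early and heat shock). With totals lacking Sftpc, mitochondrial and ribosomal genes, 41 genes were higher, and list medians were -0.24 (AT1 identity) and 1.17 (ciliated markers). With mean CPM of at least 2, 230 genes were higher and 426 lower, and list medians were -0.37 (AT1 identity) and 1.42 (ciliated markers). With mean CPM of at least 50, 4 genes were higher and 2 lower, and the list median was -0.69 (integrated stress response). At 1.5-fold, 73 genes were higher and 311 lower. Without genes higher in other cell types, 0 genes were higher and 3 lower, and the list median was 0.075 (AT1 identity). Without Scgb3a2-rich cells, the list median was 0.77 (club and goblet markers). With every cell counting the same, the list median was -2.92 (erythroid markers).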
